A study of Mus musculus with 18 samples.

Results

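The mitochondrial chaperone and protease genes Hspd1, Hspe1, Hspa9, Grpel1, Dnaja3, Trap1, Lonp1, Clpp and Clpx (9 genes) were followed through 18 RNA-seq libraries of a mouse mammary carcinoma line and its drug-selected descendants. They were chosen by symbol from the 24421 genes listed in the count table, and all 9 members were present and passed the filter on low counts. The libraries came from 4T1 cells, a BALB/cfC3H mammary carcinoma line, and from 4T1R1 and 4T1R2, which were derived from 4T1 by separate selection with 17-DMAG, an inhibitor of the cytosolic chaperone HSP90. Each population was sequenced without drug and after 17-DMAG at 1.5 µM, with 3 libraries per group. The sample records give 48 h for this exposure and the series text gives 2 h, so the time behind each response is not settled here. The records also differ on the schedule by which the resistant populations were selected. The study describes the libraries of a group as biological replicates, and how their cultures were kept apart is not given in the sources used here.

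Most mitochondrial proteins are made in the cytosol and enter the organelle unfolded. Mortalin, the mitochondrial HSP70 encoded by Hspa9, pulls them through the inner membrane and folds them together with its nucleotide exchange factor Grpel1 and its J-domain partner Dnaja3. Substrates that need a closed chamber pass to the chaperonin, a barrel of HSP60 (Hspd1) capped by a ring of HSP10 (Hspe1). Trap1 is the HSP90 paralog of the matrix. Proteins that cannot be folded are degraded by Lonp1, an ATP-dependent protease, and by the complex of the unfoldase Clpx with the peptidase Clpp. In the mitochondrial unfolded protein response these chaperones and proteases are known to be induced together, and Hspd1 and Hspe1 are also textbook targets of the heat shock factor HSF1.

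Hspd1 and Hspe1 lie head to head on chromosome 1 of GRCm38 in the GENCODE vM21 annotation, Hspd1 on the minus strand at chr1:55077835-55088243 and Hspe1 on the plus strand at chr1:55088132-55091307. The records of the genes overlap by 112 bases through alternative Hspd1 transcripts, and the principal transcripts start 107 bases apart. The stretch between these starts, chr1:55088025-55088131, is shown because both genes responded most strongly to 17-DMAG. It also holds the only run of 3 or more heat shock element units found in the promoter windows of the members searched, which leave out Hspa9. It was read from the RefSeq promoter table for GRCm38.p6, on the plus strand, and the capitals mark 4 alternating 5-base units of the kind nGAAn and nTTCn in a row, 20 bases in all.
Stretch between Hspd1 and Hspe1: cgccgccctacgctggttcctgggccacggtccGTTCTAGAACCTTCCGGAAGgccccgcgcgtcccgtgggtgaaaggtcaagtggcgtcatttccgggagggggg
Element on the Hspd1 strand: CTTCCGGAAGGTTCTAGAAC
The element began 34 bases upstream of the principal Hspd1 start and 55 bases upstream of the Hspe1 start in GENCODE vM21. The Hspd1 record, with its alternative transcripts, extends over it. From the RefSeq starts used for the promoter windows it lay at −145 to −126 for Hspd1 and −90 to −71 for Hspe1. A run of at least 3 alternating units, searched on both strands, occurred in 196 of 32817 RefSeq promoters of the same length (250 bases before to 50 after a start), or 0.597%. Of the 8 members searched, Hspd1, at 1 of its 2 RefSeq starts, and Hspe1 held such a run. A run of 2 units (GAANNTTC or TTCNNGAA), which every longer run also contains, was present in 15% of promoters, and among the members besides Hspd1 and Hspe1 it was found once, in Clpp, 33 to 42 bases past the start. The element TGATGNAA of C/EBP and ATF factors was present in 3.97% of promoters and matched in none of these windows. Hspa9 had no entry. These are matches of letters, and binding was not measured.

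The other members lie singly. Hspa9 is on chromosome 18 (34937414 to 34954357, minus strand) and Grpel1 on chromosome 5 (36464998 to 36474080, plus strand). Trap1 (4039971 to 4077827, minus strand) and Dnaja3 (4639989 to 4707695, plus strand) share chromosome 16, and Lonp1 (56614297 to 56626887, minus strand) and Clpp (56990305 to 56996188, plus strand) share chromosome 17, 363418 bases apart. Clpx is on chromosome 9 (65294260 to 65330658, plus strand). The annotation names 5 processed pseudogenes of Hspd1, 6 of Hspe1 and 1 of Hspa9, none of which is in the count table. Because the treatment of reads with several matches is not given, the absolute levels of these 3 genes are uncertain. Trap1 overlaps Dnase1, Grpel1 overlaps Tada2b and Dnaja3 overlaps Coro7 on the other strand, Dnaja3 also overlaps Vasn on its own strand, and it is not stated whether strand was used in counting.

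Total counts ran from 23354461 to 55094630 per library, with a median of 30747714. The ribosomal RNA precursor Rn45s took 9.54% to 15.6% of them. In the 17-DMAG group of 4T1, replicates 1 and 2 had a chi-square per gene of 1.1 over low-count genes, against 2.04 to 2.22 in the 17 other pairs of a shared group. Since both mates of a read pair appear to have been counted, noise between separate libraries lies near 2, and this pair differed by less. They were averaged and counted as 1 sample, which leaves n = 2 in that group and n = 3 in the others. The 7 epithelial markers, among them Krt8, Krt18 and Cdh1, summed to 1662 to 2518 normalized CPM in every library. Of 9 markers of leukocytes, endothelium, fibroblasts and adipocytes only Pdgfra reached 1 normalized CPM, and Lum was at 0 throughout. Pdgfra fell after 17-DMAG with the rise of Hspd1, Hspe1 and Hspa9, from 23 to 12.5 CPM in 4T1 (−0.89, adjusted p = 7.65e-12), from 27.3 to 23 in 4T1R1 (−0.25) and from 31.5 to 27.1 in 4T1R2 (−0.21, lost without untreated replicate 2 or 3 or treated replicate 1), and its part in the responses was not tested. The epithelial sum was lower in untreated 4T1R1 (1662 to 1746) and 4T1R2 (1927 to 1966) than in untreated 4T1 (2482 to 2518). Cdh1 was not lower, with untreated means of 360 CPM in 4T1, 363 in 4T1R1 and 435 in 4T1R2. Each other epithelial marker had a lower mean in both. The part of the epithelial sum in the differences between untreated populations was not tested. The library names of 4T1R1 are numbered apart from those of 4T1 and 4T1R2, and the labels used here do not say why. Any difference in handling that goes with these names cannot be told apart from population where 4T1R1 is set against 4T1.

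Levels are given as normalized CPM (counts-per-million), the counts divided by the library size scaled with edgeR's TMM factors. To compare genes they are divided by the length of the union of annotated exons (CPM per kb). In untreated 4T1 cells Hspd1 was the most abundant member, at 456 ± 8.51 CPM per kb (SD, n = 3), followed by Hspa9 at 170 ± 3.27 and Hspe1 at 107 ± 2.11. Trap1 stood at 54.2 ± 1.82, Clpp at 30 ± 2.22 and Lonp1 at 29.3 ± 0.473 CPM per kb. Grpel1 (22.5 ± 0.687), Dnaja3 (19.4 ± 0.861) and Clpx (11.9 ± 0.363) were the lowest. In this order the libraries of neighbouring genes overlapped only for Clpp and Lonp1. The chaperonin and HSP70 subunits thus stood above the proteases, and the peptidase Clpp exceeded its unfoldase partner Clpx. Hspd1 alone took 45.7% to 47.2% of the summed counts of the 9 members. After 17-DMAG in 4T1, Hspe1 (257 ± 5.71 CPM per kb, n = 2) stood above Hspa9 (227 ± 5.69, n = 2), whereas Hspa9 stayed above Hspe1 in the 5 other groups. The lowest raw count behind any member's value was 964, for Clpp.

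**Figure D1:**
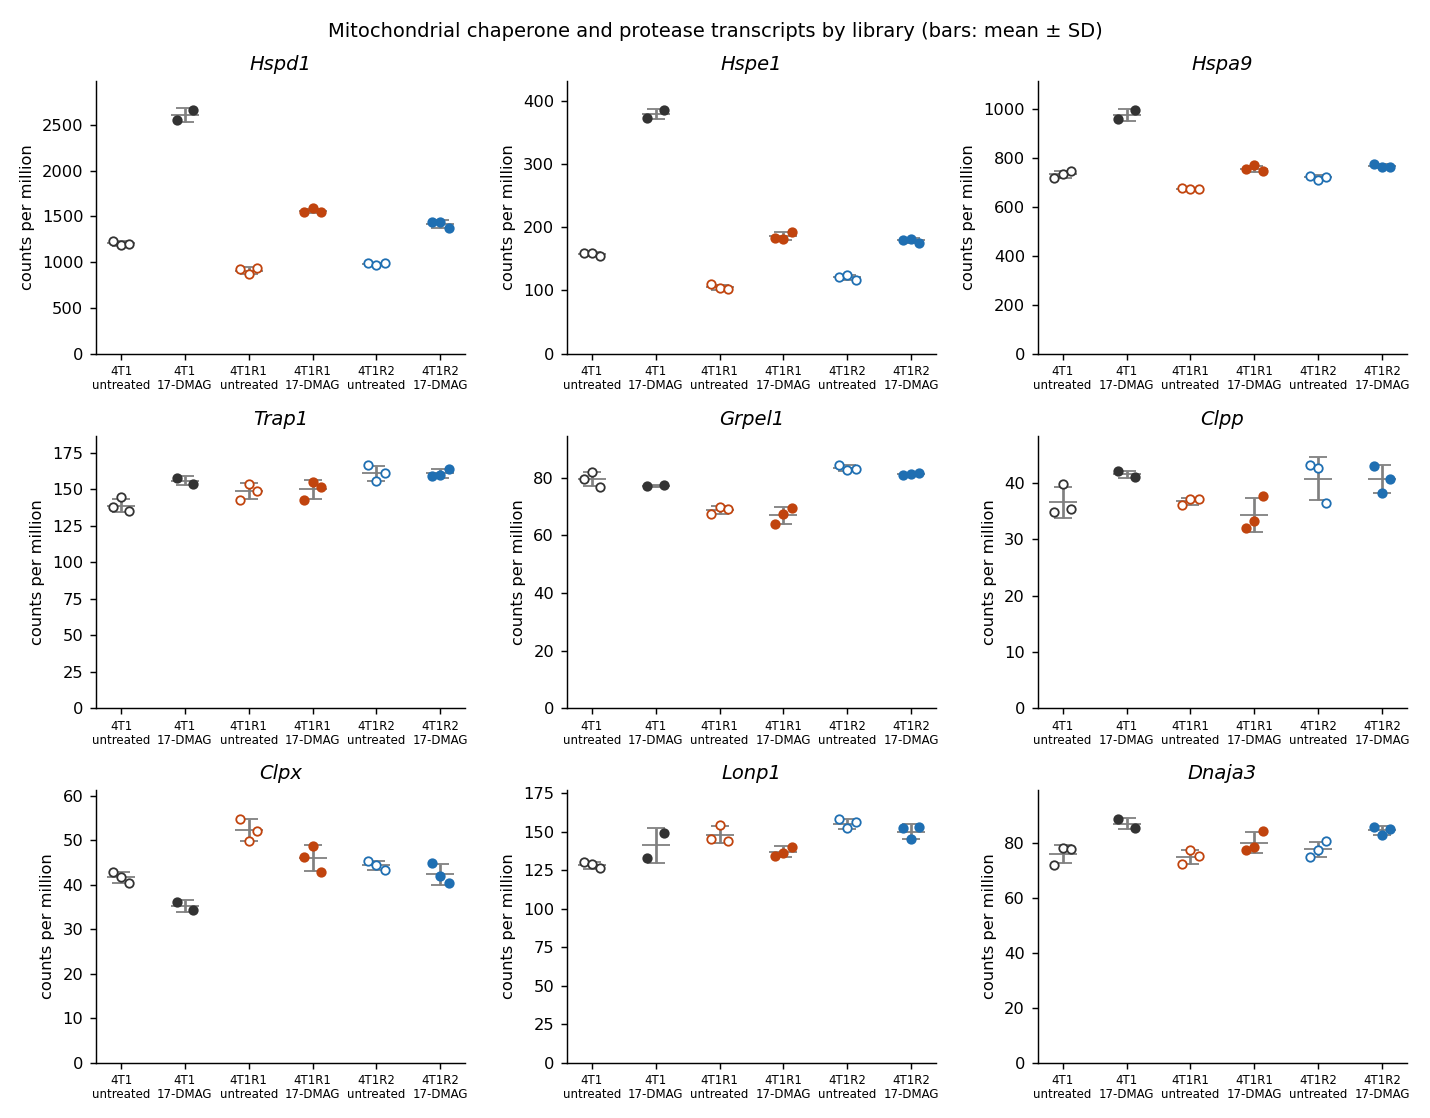
Normalized CPM of each member in each library (y axis, linear from 0), for the 6 groups (x axis; open points untreated, filled points 17-DMAG), with a bar for the mean and whiskers for the SD; the left point of treated 4T1 is the average of replicates 1 and 2. Hspd1, Hspe1 and Hspa9 are higher in every treated library than in every untreated library of the same population, while the libraries of Dnaja3 lie between 72.1 and 88.7 in all groups.

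The first comparison asked how each population responded to 17-DMAG. In 4T1 the chaperonin subunits rose 2.16-fold (Hspd1) and 2.41-fold (Hspe1), Hspa9 rose 1.33-fold, and the other members moved by 1.18-fold or less in either direction. In the resistant populations the same 3 chaperone genes rose by smaller factors and few other members passed the test. The test was the quasi-likelihood test of edgeR on 13507 genes, with p-values adjusted over all of them (Benjamini-Hochberg) and a threshold of 0.05. In bulk RNA, a change in level per cell and a change in the mix of cells cannot be told apart.

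The chaperonin subunits showed the largest responses. Hspd1 had 1186, 1201 and 1230 CPM in the untreated 4T1 libraries, and 2557 in the averaged library and 2662 in replicate 3 after 17-DMAG. In 4T1R1 it went from 868, 925 and 936 to 1552, 1554 and 1588 CPM, and in 4T1R2 from 967, 986 and 994 to 1370, 1436 and 1445. Every treated library lay above every untreated library of its population, and the treated libraries of both resistant populations lay between untreated and treated 4T1. On the log2 scale Hspd1 rose by 1.11 (SE 0.0285, adjusted p = 3.87e-30) in 4T1, by 0.78 (SE 0.0262, adjusted p = 1.72e-25) in 4T1R1 and by 0.53 (SE 0.0261, adjusted p = 2.78e-19) in 4T1R2.

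Hspe1, the lid of the same chamber, followed closely. It had 154, 159 and 159 CPM in untreated 4T1, and 373 and 385 after 17-DMAG. Its values went from 102, 104 and 110 to 182, 183 and 193 CPM in 4T1R1, and from 116, 121 and 124 to 175, 180 and 181 in 4T1R2. Again the groups did not overlap in any population. The log2 rise was 1.27 (SE 0.0361, adjusted p = 1.32e-28) in 4T1, 0.82 (SE 0.0346, adjusted p = 6.34e-22) in 4T1R1 and 0.57 (SE 0.0345, adjusted p = 2.23e-16) in 4T1R2.

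Because the chaperonin subunits share a promoter region and act in 1 complex, the ratio of their counts was followed in each library. For every 100 Hspd1 counts there were 12.8 to 13.4 Hspe1 counts in untreated 4T1, and 14.4 and 14.6 after 17-DMAG. In 4T1R1 the range was 10.9 to 12 untreated and 11.4 to 12.4 treated, and in 4T1R2 it was 11.7 to 12.9 and 12.5 to 12.8. The log2 ratio differed between treated and untreated libraries by 0.15 in 4T1, where the groups did not overlap, by 0.036 in 4T1R1 and by 0.042 in 4T1R2, where they did. Two-sided exact permutation tests gave p = 0.2, 0.7 and 0.5, but the smallest p possible is 0.2 with 3 libraries against 2 and 0.1 with 3 against 3, so none of these tests could have passed the threshold.

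**Figure D2:**
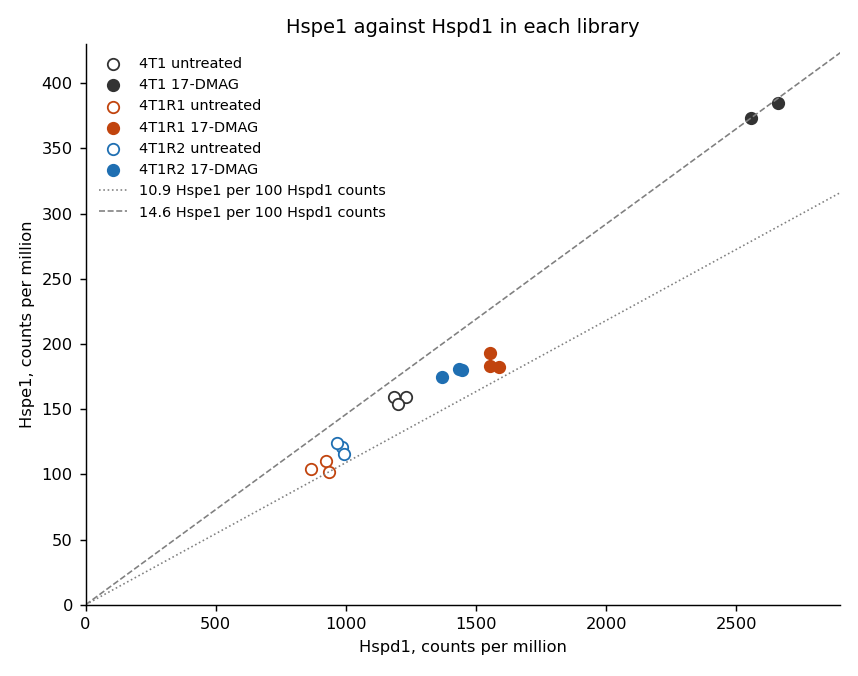
Hspe1 (y axis) against Hspd1 (x axis), both in normalized CPM, with 1 point per library (open untreated, filled 17-DMAG) and lines through the origin at the lowest and highest ratio, 10.9 and 14.6 Hspe1 counts per 100 Hspd1 counts. The libraries line up along a narrow band from untreated 4T1R1 at the lower left to treated 4T1 at the upper right, where both points lie at the upper edge of the band.

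Hspa9, the motor and core chaperone of the matrix, rose in all populations, by less than the chaperonin. It had 720, 735 and 748 CPM in untreated 4T1, and 961 and 996 after 17-DMAG. In 4T1R1 it went from 675, 675 and 676 to 747, 755 and 771 CPM, and in 4T1R2 from 712, 724 and 727 to 763, 765 and 775. The groups did not overlap, and the log2 rise was 0.41 (SE 0.0265, adjusted p = 1.44e-16) in 4T1, 0.17 (SE 0.024, adjusted p = 8.68e-07) in 4T1R1 and 0.09 (SE 0.024, adjusted p = 0.00983) in 4T1R2. The last call was lost without untreated 4T1R2 replicate 2 (0.081, adjusted p = 0.0663) and without treated 4T1R2 replicate 1 (0.084, adjusted p = 0.0582), and it was also lost with scaling by total counts alone (0.044, adjusted p = 0.315).

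Of the partners of Hspa9, Dnaja3 rose in 4T1 and Grpel1 did not pass the test in any population. Grpel1, which exchanges its nucleotide, had 76.9 to 81.8 CPM in untreated 4T1 and 77 and 77.5 after 17-DMAG. Its log2 change was −0.039 in 4T1 (95% interval −0.13 to 0.05), −0.041 in 4T1R1 (−0.12 to 0.041) and −0.037 in 4T1R2 (−0.12 to 0.043), and no population passed the test (adjusted p = 0.537, 0.504 and 0.63). The intervals therefore exclude a rise in Grpel1 of the size seen for Hspa9 in 4T1. Dnaja3, which delivers substrates to Hspa9, had 72.1, 77.8 and 78.1 CPM in untreated 4T1, and 85.6 and 88.7 after 17-DMAG, a log2 rise of 0.20 (SE 0.0469, adjusted p = 0.000722). In the resistant populations its groups did not overlap either, but the differences of 0.10 in 4T1R1 (adjusted p = 0.0869) and 0.12 in 4T1R2 (adjusted p = 0.0551) did not pass the test. With scaling by total counts alone the 4T1R1 difference of Dnaja3 passed (0.13, adjusted p = 0.0226). Its rise in 4T1 then did not (0.082, adjusted p = 0.184).

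Trap1, the matrix paralog of the protein that 17-DMAG inhibits in the cytosol, rose slightly in 4T1. It had 135, 138 and 145 CPM untreated, and 154 and 158 after 17-DMAG, a log2 rise of 0.16 (SE 0.0405, adjusted p = 0.00128). Its differences were 0.011 in 4T1R1 (95% interval −0.063 to 0.084, adjusted p = 0.873) and −0.0024 in 4T1R2 (−0.076 to 0.071, adjusted p = 0.979), with overlapping groups.

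The proteases moved little and in different directions. Lonp1 had 126, 129 and 130 CPM in untreated 4T1, and 133 and 149 after 17-DMAG, a log2 rise of 0.13 (SE 0.042, adjusted p = 0.0107) that rested on replicate 3 (0.047, adjusted p = 0.558 without it). In 4T1R1 it went from 144, 145 and 154 to 134, 136 and 140 CPM and fell by 0.11 (adjusted p = 0.0273) on the log2 scale, a call lost without untreated replicate 2 (−0.078, adjusted p = 0.155) or treated replicates 1 (−0.092, adjusted p = 0.121) or 2 (−0.11, adjusted p = 0.0702). In 4T1R2 the log2 difference of Lonp1 was −0.051 (adjusted p = 0.443).

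Clpx, the unfoldase that feeds Clpp, fell in 4T1 and in 4T1R1. It had 40.3, 41.6 and 42.8 CPM in untreated 4T1, and 34.2 and 36.2 after 17-DMAG. In 4T1R1 it went from 49.9, 52.1 and 54.7 to 42.8, 46.2 and 48.7 CPM. The log2 fall was 0.24 in 4T1 (−0.24, adjusted p = 0.00193) and 0.19 in 4T1R1 (−0.19, adjusted p = 0.00644), and in 4T1R2 the difference of −0.067 (adjusted p = 0.503) did not pass. The 4T1 call was lost without treated replicate 3 (−0.20, adjusted p = 0.0519), and the 4T1R1 call without untreated replicate 1 (−0.15, adjusted p = 0.0525) or treated replicate 3 (−0.14, adjusted p = 0.0727).

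Clpp, the peptidase that Clpx feeds, went the other way in 4T1, from 34.8, 35.4 and 39.8 CPM to 41.2 and 42.1, a log2 rise of 0.19 (SE 0.0711, adjusted p = 0.0374). This call was lost without untreated replicate 1 (0.15, adjusted p = 0.14) or 3 (0.16, adjusted p = 0.12), without either treated 4T1 library (0.17, adjusted p = 0.181 without the averaged one, 0.20, adjusted p = 0.109 without replicate 3) and with DESeq2 (0.18, adjusted p = 0.0713). Its differences of −0.10 in 4T1R1 (adjusted p = 0.265) and −0.0045 in 4T1R2 (adjusted p = 0.978) did not pass.

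In all, 7 members rose and 1 fell in 4T1, where 18.4% of all genes tested rose and 17.9% fell, and the median member changed by 0.19 (log2) against 0.00064 over all genes. In 4T1R1, 3 rose and 2 fell, where 13.9% of genes rose and 14.3% fell, with medians of 0.011 and −0.0086. In 4T1R2, 3 rose, where 6.18% of genes rose, and none fell, where 4.35% of genes fell, with medians of −0.0024 and −0.0019. None fell there at an unadjusted p under 0.05 or with DESeq2 either. Scaling by total counts alone lowered the median of all genes by 0.11 (log2) in 4T1 (to −0.11), and the share of rises among called genes there went from 50.7% to 21.6%, in 4T1R1 from 49.2% to 64.2% and in 4T1R2 from 58.7% to 24.2%. With that scaling Hspd1, Hspe1 and Hspa9 still rose in 4T1 (1.00, 1.15 and 0.30 on the log2 scale), Clpx still fell (−0.35), Grpel1 passed as lower (−0.15, adjusted p = 0.00573), and Trap1 (0.047), Clpp (0.069), Lonp1 (0.017) and Dnaja3 (0.082) no longer passed. The small rises of these 4 genes in 4T1 are thus relative to the scaling.

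**Figure D3:**
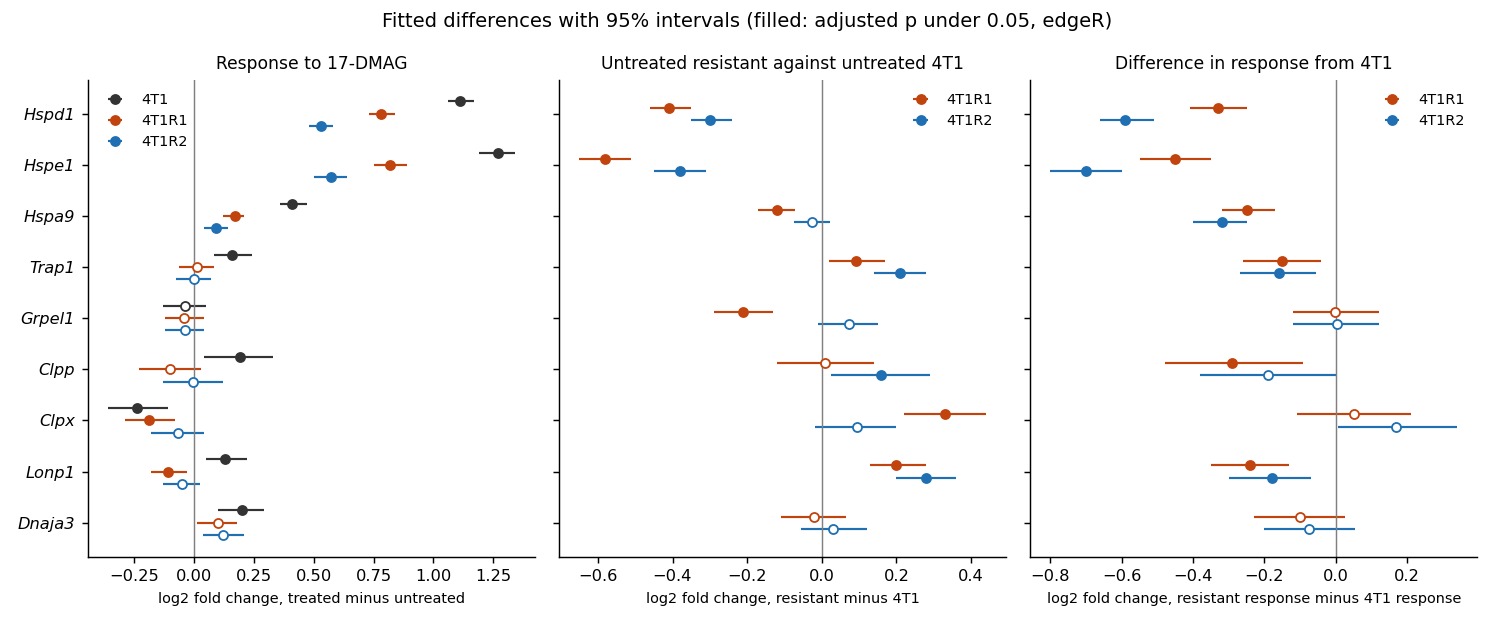
Fitted log2 fold changes (x axes) of the 9 members (y axis) with 95% intervals: the response to 17-DMAG (left), the untreated resistant populations against untreated 4T1 (middle) and the difference of each resistant response from that of 4T1 (right). Filled points passed the test; Hspd1 and Hspe1 stand at 1.11 and 1.27 on the left, fall below 0 in the middle, and are at −0.33 to −0.70 on the right.

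The next comparison asked how the selected populations differed from 4T1 before any drug. Both chaperonin subunits were lower and Lonp1 was higher in both resistant populations. Hspd1 had 868 to 936 CPM in 4T1R1 and 967 to 994 in 4T1R2, below the 1186 to 1230 of 4T1, a log2 difference of −0.41 (SE 0.0261, adjusted p = 7.86e-17) and −0.30 (SE 0.0261, adjusted p = 9.97e-13). Hspe1 had 102 to 110 and 116 to 124 CPM against 154 to 159, a difference of −0.58 (SE 0.0348, adjusted p = 9.32e-18) and −0.38 (SE 0.0348, adjusted p = 2.17e-12). Hspa9 was lower in 4T1R1 (−0.12, adjusted p = 4.09e-05), and in 4T1R2 its libraries overlapped those of 4T1 (−0.026, adjusted p = 0.375).

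The other chaperone genes split between the populations. Grpel1 had 67.3 to 69.9 CPM in 4T1R1, below all 4T1 libraries (−0.21, adjusted p = 2.88e-05), and 82.5 to 84.5 in 4T1R2, above them (0.072, adjusted p = 0.131, which did not pass). Trap1 was higher in 4T1R2, at 156 to 167 CPM against 135 to 145 (0.21, SE 0.0366, adjusted p = 5.34e-06). In 4T1R1 its groups overlapped (0.093, adjusted p = 0.0299), and that call was lost without 4T1 replicate 1 (adjusted p = 0.0756) or 3 (adjusted p = 0.146) or 4T1R1 replicate 2 (adjusted p = 0.144) or 3 (adjusted p = 0.0604). Dnaja3 did not pass in either (−0.02 and 0.031).

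Among the proteases, Lonp1 had 144 to 154 CPM in 4T1R1 and 152 to 158 in 4T1R2, above the 126 to 130 of 4T1, by 0.20 (SE 0.0376, adjusted p = 1.38e-05) and 0.28 (SE 0.0378, adjusted p = 4.36e-08) on the log2 scale. Clpx had 49.9 to 54.7 CPM in 4T1R1 against 40.3 to 42.8, a rise of 0.33 (SE 0.0534, adjusted p = 1.42e-06), and 43.3 to 45.4 in 4T1R2 (0.094, adjusted p = 0.151). Clpp did not pass in 4T1R1 (0.008, adjusted p = 0.93). In 4T1R2 its groups overlapped and its difference of 0.16 (adjusted p = 0.0411) lost its call without 4T1 replicate 1 (adjusted p = 0.168) or 3 (adjusted p = 0.139), without 4T1R2 replicate 1 (adjusted p = 0.229) or 2 (adjusted p = 0.155), and with DESeq2 (adjusted p = 0.0631).

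Thus 3 members were higher and 4 lower in untreated 4T1R1, where 25.2% of genes were higher and 27.5% lower, and 3 were higher and 2 lower in 4T1R2, where the shares were 25.6% and 26.9%. The member medians were −0.02 and 0.072, beside 0.0075 and 0.0068 over all genes. The counts of members were near these shares of all genes, and among the members Hspe1 and Hspd1 had the largest differences in both populations.

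Whether the resistant populations responded differently from 4T1 was tested as an interaction, the difference between the log2 changes. The responses of Hspd1, Hspe1 and Hspa9 were smaller in both. For Hspd1 the difference was −0.33 in 4T1R1 (SE 0.0388, adjusted p = 1.61e-08) and −0.59 in 4T1R2 (SE 0.0388, adjusted p = 1.4e-15). For Hspe1 it was −0.45 (SE 0.0502, adjusted p = 5.36e-09) and −0.70 (SE 0.0501, adjusted p = 1.88e-14). Hspa9 followed with −0.25 (SE 0.0359, adjusted p = 1.5e-06) and −0.32 (SE 0.0358, adjusted p = 2.92e-09). These differences share the 4T1 libraries, so they are not independent of each other, and the 4T1R2 and 4T1R1 responses were not tested against each other.

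For the proteases, the Lonp1 difference was −0.24 in 4T1R1 (SE 0.0563, adjusted p = 0.00162) and −0.18 in 4T1R2 (SE 0.0562, adjusted p = 0.0171). Both rested on treated 4T1 replicate 3, without which they were −0.16 (adjusted p = 0.0953) and −0.094 (adjusted p = 0.386), and the second also on treated 4T1R2 replicate 2 (−0.16, adjusted p = 0.0583). Clpp differed by −0.29 in 4T1R1 (SE 0.0966, adjusted p = 0.0314), a call kept in 11 of 17 fits that left out 1 library (adjusted p at most 0.112, without the averaged library of treated 4T1), and by −0.19 in 4T1R2 (adjusted p = 0.181). Trap1 differed by −0.15 (adjusted p = 0.0455) and −0.16 (adjusted p = 0.0284), calls kept in 7 and 9 of the 17 fits, with p up to 0.183 and 0.151, both without the averaged library of treated 4T1. Clpx (0.051 and 0.17), Dnaja3 (−0.10 and −0.075) and Grpel1 (−0.0018 and 0.002) did not pass. The interval for Grpel1 was −0.12 to 0.12 in both comparisons with the main scaling. With total counts alone its difference in 4T1R1 was 0.15 (edgeR, adjusted p = 0.0697), outside that interval.

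In total 6 members had a lower response in 4T1R1 and 5 in 4T1R2, where 9.08% and 8.16% of all genes did, and none had a higher one, where 9.16% and 9.62% did. At an unadjusted p under 0.05, none had a higher response in 4T1R1 and 1 did in 4T1R2, and DESeq2 called none in either. The member medians were −0.24 and −0.18, beside −0.0031 and −0.0011 over all genes. With scaling by total counts alone the median of all genes moved to 0.15 in 4T1R1 and 0.068 in 4T1R2, and the share of higher responses among called genes went from 50.2% to 89.4% and from 54.1% to 76.8%. Under it Hspd1 (−0.18 and −0.52) and Hspe1 (−0.30 and −0.63) still passed in both populations and Hspa9 in 4T1R2 (−0.25), while Hspa9 in 4T1R1 (−0.10, adjusted p = 0.058), Trap1, Clpp and Lonp1 did not.

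The mitochondrial members were set beside 14 relatives in the cytosol and endoplasmic reticulum (ER), which include the cytosolic HSP90 genes, whose products the drug inhibits, and the classic heat shock genes. All 14 rose in 4T1, with a median log2 change of 1.26, where 18.4% of all genes rose. With total counts alone 13 rose there, and Hspa1a, which is among them in the main fit, had only 3 to 49 counts per library. In 4T1R1, 12 rose and 1 fell (median 0.46), where 13.9% of genes rose and 14.3% fell. In 4T1R2, 13 rose (median 0.49), where 6.18% of genes rose. Hspa1b, the stress-inducible HSP70, went from 15.8 ± 0.796 CPM (SD, n = 3) to 546 ± 7.63 (n = 2) in 4T1, a log2 change of 5.11, against the 0.41 of Hspa9. Hspa8, the constitutive cytosolic HSP70, rose by 2.32 and the HSP70 exchange factor Hsph1 by 2.72. The following relatives are named for their family and not by size of change. Hspa5, the HSP70 of the ER, and Hspa4 rose by 0.23 and 0.24 in 4T1, less than Hspa9, and Hspa5 fell in 4T1R1 (−0.10, adjusted p = 0.00591). That call was lost without untreated 4T1R1 replicate 3 (adjusted p = 0.0748) and with total counts alone (−0.071, adjusted p = 0.0946). The cytosolic HSP90 genes Hsp90aa1 and Hsp90ab1 rose by 2.00 and 0.96 in 4T1 and the ER form Hsp90b1 by 0.21, against 0.16 for Trap1. Among J-domain proteins Dnaja1 rose by 2.03, Dnaja4 by 1.56 and Dnaja2 by 0.24, against 0.20 for Dnaja3. Among chaperonins Tcp1 and Cct2, the only cytosolic subunits in this list, rose by 0.19 and 0.34, against 1.11 for Hspd1. The rise of Tcp1 was lost with total counts alone (0.076, adjusted p = 0.0834). Of the differences in response from 4T1, 9 of the 14 relatives were lower in each resistant population (medians −0.32 and −0.67), where 9.08% and 8.16% of all genes were. These are separate log2 changes from the same fit, and differences between genes were not tested.

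**Figure D4:**
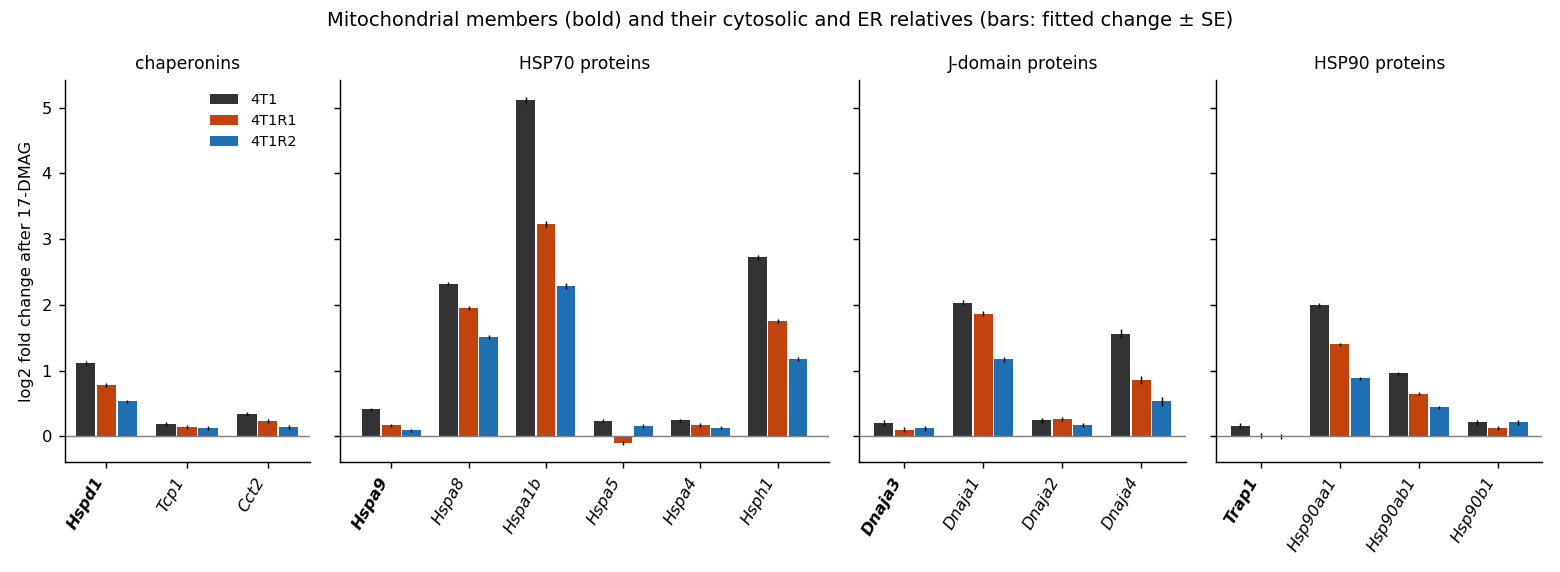
Fitted log2 fold change after 17-DMAG (y axis) in the 3 populations for mitochondrial members (bold) and their cytosolic and ER relatives (x axis), by protein family, with bars for the fitted change and whiskers for its SE; Hspa1a, which is near-identical to Hspa1b, is left out. Hspd1 exceeds Tcp1 and Cct2 in each population, whereas Hspa9, Dnaja3 and Trap1 lie below the leading member of their family, at 5.11 for Hspa1b, 2.03 for Dnaja1 and 2.00 for Hsp90aa1 in 4T1.

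The rest of the mitochondrial protein quality system was examined with the lists of further co-chaperones, proteases and import subunits. Of 14 co-chaperones and folding factors, 4 rose and 1 fell in 4T1 (median 0.068), 1 rose in 4T1R1 (median 0.01) and 2 rose in 4T1R2 (median 0.021). With total counts alone 0 rose and 4 fell in 4T1, and with 1 library left out 2 to 4 rose and 0 to 1 fell. Grpel2, the stress-linked paralog of Grpel1, fell from 24.9 ± 0.391 to 21.1 ± 0.469 CPM in 4T1 (−0.24, adjusted p = 0.0102) and rose from 21.3 ± 1.55 to 24.9 ± 1.73 in 4T1R2 (0.23, adjusted p = 0.022). The first call was lost without treated 4T1 replicate 3 (adjusted p = 0.0835), and the second with total counts alone (adjusted p = 0.0861) and without untreated 4T1R2 replicate 1 or 2 or treated replicate 2 (adjusted p up to 0.178). Dnajc11, a J-domain protein, rose by 0.22 in 4T1 and 0.16 in 4T1R1, and by 0.11 in 4T1 with total counts alone (adjusted p = 0.0502). Of 18 other proteases and peptidases, 5 rose and 2 fell in 4T1 (median 0.058), 2 rose in 4T1R1 (median 0.016), and 2 rose and 1 fell in 4T1R2 (median 0.036). With total counts alone 2 rose and 3 fell in 4T1, and with 1 library left out 2 to 6 rose and 0 to 2 fell. Xpnpep3, an aminopeptidase, led this list in each population, with rises of 0.71, 0.46 and 0.31, larger than any of Lonp1, Clpp or Clpx. Of 27 import subunits tested, 7 rose in 4T1 (median 0.086), 4 rose and 3 fell in 4T1R1 (median 0.013), and 3 rose in 4T1R2 (median 0.04), among them the receptor Tomm70a in each (0.27, 0.21 and 0.11, the last lost with total counts alone at 0.065, adjusted p = 0.212). With total counts alone 2 import subunits rose and 3 fell in 4T1, and with 1 library left out 4 to 7 rose. The balance of rises and falls in 4T1 over these 3 lists thus depends on the scaling. Over all genes tested, 18.4% rose and 17.9% fell in 4T1, 13.9% and 14.3% in 4T1R1, and 6.18% and 4.35% in 4T1R2.

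Without drug, 17 of 27 import subunits were lower and 1 higher in 4T1R1 (median −0.21), led by Tomm22 (−0.52) and Tomm7 (−0.50), and 11 were lower and 6 higher in 4T1R2 (median −0.025), led again by Tomm22 (−0.53). Of the 14 co-chaperones, 2 were higher and 5 lower in 4T1R1, and 5 higher and 1 lower in 4T1R2, with Clpb, a disaggregase of the intermembrane space, at 0.35. Of the 18 other proteases, 3 were higher and 7 lower in 4T1R1, and 5 higher and 5 lower in 4T1R2. Over all genes tested, 25.2% were higher and 27.5% lower in untreated 4T1R1, and 25.6% and 26.9% in untreated 4T1R2. Genes of mitochondrial content, such as respiratory chain subunits and porins, gave 3 higher and 8 lower of 16 in 4T1R1 (median −0.10) and 8 higher and 4 lower in 4T1R2 (median 0.08). After 17-DMAG 5 of the 16 rose and 2 fell in 4T1 (median 0.051; 1 and 3 with total counts alone), and 2 rose and 3 fell in 4T1R1 (median −0.034). In 4T1R2 none passed with edgeR, 4 were higher at an unadjusted p under 0.05 and DESeq2 called 1. Of all genes tested, 18.4% rose and 17.9% fell after 17-DMAG in 4T1, 13.9% and 14.3% in 4T1R1, and 6.18% and 4.35% in 4T1R2.

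Genes of the mitochondrial and integrated stress responses rose in 4T1. Leaving out Fgf21, which had at most 10 counts in any library, 12 of 16 genes rose and 1 fell in 4T1 (median 1.09), 7 rose and 3 fell in 4T1R1 (median 0.16), and 7 rose in 4T1R2 (median 0.10). Trib3 rose from 7.34 ± 0.659 to 48.1 ± 0.491 CPM in 4T1 (2.71), Chac1, a glutathione-degrading enzyme, by 2.43, and the transcription factor Atf5, which is linked to the mitochondrial unfolded protein response, from 25.4 ± 2.05 to 121 ± 1.47 CPM (2.25, adjusted p = 8.51e-30). Before treatment 14 of the 16 were higher and 1 lower in 4T1R1 (median 0.82), and 15 higher and 1 lower in 4T1R2 (median 0.59), where Hspd1 and Hspe1 were lower. Atf5 was higher by 1.08 and 0.32 and its response to 17-DMAG was 0.38 and 0.33. Atf4 and Hsf1 are added after their values were seen: Atf4 rose by 1.10, 0.24 and 0.17 after 17-DMAG, and Hsf1 did not pass (−0.075, −0.10 and 0.0065) but was higher in untreated 4T1R1 (0.13, adjusted p = 0.0235, lost in 4 of 17 fits that left out 1 library) and 4T1R2 (0.21, adjusted p = 0.000417). Of the differences in response, 13 of the 16 were lower in 4T1R1 (median −0.93) and 12 in 4T1R2 (median −0.98). Of all genes tested, 18.4% rose and 17.9% fell after 17-DMAG in 4T1, 13.9% and 14.3% in 4T1R1, and 6.18% and 4.35% in 4T1R2. In the untreated comparisons 25.2% of them were higher and 27.5% lower in 4T1R1, and 25.6% and 26.9% in 4T1R2. A lower response than in 4T1 was found for 9.08% in 4T1R1 and 8.16% in 4T1R2.

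To place each member among all genes, the mean log2 levels of the 6 groups were centred on the gene's own mean, and the genes with the smallest root mean square difference were listed among 10334 genes with a mean of 100 or more counts. Over the 6 groups Hspd1 and Hspe1 differed from each other by 0.106, and the nearest genes outside the members were Cacybp (0.0742), Azi2 (0.086) and Ubxn4 (0.099) for Hspd1, and Tmem33 (0.0749), Cacybp (0.121) and Akap12 (0.133) for Hspe1. For Hspa9 they were Rnmt (0.0175), B230217O12Rik (0.0344) and Eprs (0.035), and its nearest member was Dnaja3 at 0.107. For Trap1 they were Clta (0.00869), E430025E21Rik (0.0148) and Eif3f (0.0196), with Lonp1 the nearest member at 0.0483. Lonp1 itself lay nearest to Mroh1 (0.0191), Bag1 (0.0262) and Dleu2 (0.0266). Clpp was nearest to Sod1 (0.011), Psmb6 (0.0181) and Ctsd (0.0194), and Clpx to Ccdc85b (0.0302), Pml (0.0312) and AI837181 (0.0319). Clpp and Clpx, the subunits of 1 protease, differed from each other by 0.244. Grpel1 lay nearest to Rpp30 (0.0168), Mrpl24 (0.0198) and Wdr46 (0.0264), and Dnaja3 to Zfp141 (0.016), Gemin5 (0.0167) and Mob1a (0.0197). The differences were not scaled by how much a gene varied. Trap1 spanned only −0.13 to 0.08 over the groups and Hspd1 −0.58 to 0.94. Small values for nearly flat members therefore do not mean a closer match than that of Hspd1 with Hspe1.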

How the data were processed

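RNA of 4T1, 4T1R1 and 4T1R2 cells, untreated or treated with 17-DMAG, was sequenced in 18 libraries. The authors depleted ribosomal RNA, prepared stranded libraries, aligned reads with STAR to mm10/GRCm38 and deposited whole-number counts per gene symbol from featureCounts (Subread 1.6.2, per the labels), without normalization. Strand use and multiply mapped reads in counting are not given in the sources used here. Among counts from 1 to 12, 65.6% to 70.8% per library were even, so both mates of a pair appear to have been counted.

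The counts were fitted in edgeR 4.0.16 (R 4.3.3) with filterByExpr (13507 genes kept), TMM scaling, group means fitted to 17 libraries after averaging treated 4T1 replicates 1 and 2, quasi-likelihood tests, Benjamini-Hochberg adjustment over all genes tested, threshold 0.05. The fit gave a common biological coefficient of variation of 0.0376. Promoter motifs were searched in RefSeq windows, with Hspa9 left out among the members. The ratio of Hspe1 to Hspd1 was compared with exact permutation tests (scipy 1.17.1), and figures were drawn with matplotlib 3.10.9. The code was tested on simulated data. The members, gene lists and tests were chosen with earlier results of these data known. Besides the members, up to 3 called genes with the largest change were named from each list and comparison, apart from those said to be named otherwise, and the 3 nearest genes per member among genes averaging 100 counts or more. Alternatives were RLE scaling, total counts alone, no filter, at least 10 counts in every library, DESeq2 1.42.0, only the groups compared, 18 separate libraries, the replicate number as a block, no Rn45s, and each library left out. Using treated 4T1 replicate 1 or 2 in place of their average was added after seeing the data.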

Additional observations from a re-analysis of the deposited data

Results flagged for a closer look

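Each member below had a response to 17-DMAG in a resistant population that differed from that in 4T1 by the interaction test, which is what drew attention to it. In 4T1R1 the log2 differences were −0.33 for Hspd1, −0.45 for Hspe1, −0.25 for Hspa9, −0.15 for Trap1, −0.29 for Clpp and −0.24 for Lonp1. In 4T1R2 they were −0.59 for Hspd1, −0.70 for Hspe1, −0.32 for Hspa9, −0.16 for Trap1 and −0.18 for Lonp1. All carry the same sign, and all use the same 5 libraries of 4T1. The groups of 2 or 3 libraries were not tested for outlying samples.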

How the results depend on the processing

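Of 63 member results, 39 passed the threshold and 23 of these passed under all 28 other settings. The other 16 lost the call in at least 1 setting, and none of the 39 changed sign. With total counts alone, 3 members rose and 2 fell in 4T1 and 1 fell in 4T1R1. Against 4T1, 2 then responded less in 4T1R1, with a median of −0.091, while in 4T1R2 1 responded more and 3 less. Over fits that left out 1 library, members that fell numbered 0 to 1 in 4T1 and 1 to 2 in 4T1R1, lower responses 3 to 6 in 4T1R1 and 3 to 5 in 4T1R2, and the change of the Hspe1 to Hspd1 ratio in 4T1R1 ran from −0.0074 to 0.062.

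The other turns of sign were in members that did not pass. The response of Trap1 in 4T1R2 was 0.0024 without a filter and 0.00075 without Rn45s, and ran from −0.025 to 0.023 with 1 library left out, as it did from −0.018 to 0.045 in 4T1R1. That of Clpp in 4T1R2 was 0.00029 without a filter and ran from −0.076 to 0.044. With 1 library left out, the untreated difference ran from −0.028 to 0.07 for Clpp in 4T1R1, from −0.057 to 0.0043 for Dnaja3 in 4T1R1 (0.0057 with total counts) and from −0.005 to 0.058 for Dnaja3 in 4T1R2. The difference in response in 4T1R1 was 0.049 for Dnaja3 with total counts. For Grpel1 it was 0.0036 with RLE, 0.15 with total counts, 0.011 with at least 10 counts in every library, 0.0037 with DESeq2, 0.0012 with 18 libraries, 0.0018 with the replicate block and 0.00089 with replicate 2 in place of the average, and ran from −0.029 to 0.032 with 1 library left out, and from −0.02 to 0.024 in 4T1R2. The cause of these changes was not tested.

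No pairing by equal replicate number was seen. Correlations of same-numbered deviations ran from −0.0258 to 0.0398, and those of differently numbered ones from −0.047 to 0.039. They were taken over all genes kept by the filter, so a pairing that touched only some genes could be missed. The block was fitted with 18 separate libraries. It gave 7 members that rose and 1 that fell in 4T1 (median 0.20), as did 18 separate libraries without a block. Dnaja3 in 4T1R2 passed in both (adjusted p = 0.0442 with the replicate block and 0.0466 without, edgeR), and also in other settings, with adjusted p from 0.0370 to 0.0471.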
